A study of Mus musculus with 6 samples.

Results

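The 9 genes described here are Ms4a1, Cd79a, Cd79b, Pax5, Cr2, Fcer2a, Cd22, Blk and Bank1, surface and identity genes of mature B cells. They were taken by symbol from a table of 21899 genes, each matched 1 row, and all 9 passed the count filter. RNA was measured by sequencing in the colon of Adamts4 knockout mice (KO, 3 libraries) and wild-type mice (WT, 3 libraries), all treated with 2.5% dextran sodium sulfate (DSS) for 7 days. DSS injures the colonic epithelium and causes an acute colitis, and ADAMTS4 is a secreted protease that cleaves large proteoglycans. The sources used here give neither strain, knockout allele nor age of the animals, and the labels do not say that each library is 1 animal, so p-values measure only the spread between these libraries.

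B cells recognise antigen with a surface immunoglobulin, which signals through a pair of partner chains encoded by Cd79a and Cd79b. Resting B cells of the gut wall collect in lymphoid follicles (patches and smaller aggregates), while the plasma cells that secrete IgA lie scattered in the mucosa. On the way to a plasma cell, PAX5 is shut down and CD20 (Ms4a1), CD22 and CD23 (Fcer2a) are lost, whereas CD79A can persist.

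Total counts per library ran from 15786214 to 22932125, so that 1 count stood for 0.0427 to 0.0619 CPM, the count scaled by library size and TMM factor. Adamts4 (chromosome 1, 171250421 to 171260637) had 0 counts in each KO library and 900 to 997 counts in the WT libraries. On the first principal component (44.2% of the variance) KO 3 lay far from the rest, with a score of 58.3 against -40.7 to 20. Fold changes and ratios of the 9 genes are therefore given with and without KO 3. On the GRCm38 annotation Ms4a1, Pax5, Cd22 and Bank1 each overlap at least 1 antisense or uncharacterised gene on the other strand, and since it is not stated whether counting used strand, reads of such partners cannot be told apart from theirs.

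The sequences before annotated starts of some of these genes show which short letters of B cell transcription factors they carry, and are printed for the most abundant member (Cd79a), a member with a full palindrome (Cd22) and the member that stood apart in KO 3 (Fcer2a). RefSeq (GRCm38.p6) has windows for 6 of the 9 genes, namely Cd79a, Pax5, Cr2, Fcer2a, Cd22 and Bank1, with 3 start sites for Fcer2a. The 250 bases before each start were searched on both strands for the palindrome bound by the early B cell factor EBF (TCCC and GGGA with any 2 bases between). The octamer ATGCAAAT, the ETS core GGAAGT and TCNNGGGA, here called the shorter form, were searched too. The shorter form has TC in place of TCCC, so it is a variant that the palindrome does not contain. The RefSeq starts used for Cd79a and Cd22 lie inside the GENCODE genes whose positions are given below, downstream of their outer ends, and that printed for Fcer2a lies at the outer end. Each line reads 5′ to 3′ on the strand of the gene, and capitals mark the matches.
Cd79a, plus strand, chr7:24897247-24897496: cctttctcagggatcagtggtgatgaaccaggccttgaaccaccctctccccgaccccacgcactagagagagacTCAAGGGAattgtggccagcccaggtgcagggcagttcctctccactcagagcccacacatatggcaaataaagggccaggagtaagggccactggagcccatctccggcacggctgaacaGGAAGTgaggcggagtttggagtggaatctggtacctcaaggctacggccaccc
Cd22, minus strand, chr7:30879029-30879278: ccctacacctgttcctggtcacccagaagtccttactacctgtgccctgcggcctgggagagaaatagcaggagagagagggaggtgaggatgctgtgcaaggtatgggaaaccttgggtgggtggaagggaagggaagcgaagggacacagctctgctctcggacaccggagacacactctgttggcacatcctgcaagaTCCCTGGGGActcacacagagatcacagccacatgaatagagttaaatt
Fcer2a, minus strand, chr8:3694175-3694424: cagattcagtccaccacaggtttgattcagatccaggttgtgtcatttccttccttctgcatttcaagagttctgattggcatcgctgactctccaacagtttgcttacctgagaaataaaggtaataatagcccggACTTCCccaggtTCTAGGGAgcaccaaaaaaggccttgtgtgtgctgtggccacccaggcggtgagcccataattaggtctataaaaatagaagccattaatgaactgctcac
In the Cd79a window TCAAGGGA matched the shorter form 175 bases before the start, and GGAAGT lay 54 bases before it. The Cd22 window held the full palindrome TCCCTGGGGA, which matches on both strands, 49 bases before the RefSeq start. That palindrome occurred in 0.78% of the 32841 windows of the same length, the shorter form in 15.1%, the ETS core in 19.7% and the octamer in 1.6%. The Fcer2a window had an ETS core 113 bases and the shorter form TCTAGGGA 101 bases before the start, and these 2 did not overlap. The shorter form was also found at Pax5 and at a second Fcer2a start, and the ETS core at Cr2 and Bank1. None of the member windows contained the octamer letters.

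The 9 genes did not separate the genotypes, because the KO libraries held both the lowest and the highest values. KO 3 had the highest CPM of all 6 libraries for 9 of 9 genes, against 23% of the 14553 tested genes. KO 1 had the lowest CPM for 8 of 9 (14.9% of tested genes), Bank1 being lowest in WT 1, and both at once held for 3.24% of tested genes. In edgeR's quasi-likelihood test 0 of 9 were called (0.158% of tested genes were called), 0 of 9 had an unadjusted p below 0.05 (13% of tested genes), and DESeq2 called 0 of the 8 to which it gave an adjusted p (3.54% of genes). For Fcer2a DESeq2 gave neither an unadjusted nor an adjusted p. In the authors' deposited table the false discovery rate of the 9 genes was at least 0.954. The median log2 fold change was 0.043, against 0.035 over all tested genes, with 3 genes below 0 and 6 above (45.8% of tested genes were below 0).

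**Figure D1:**
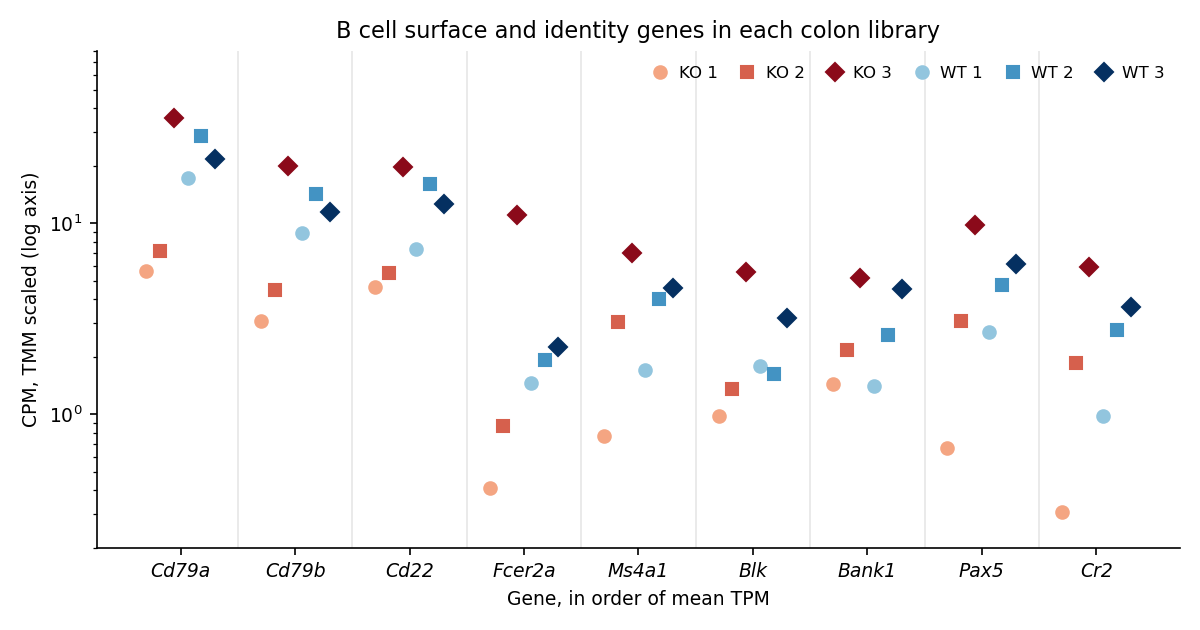
CPM of each gene (log axis) in each library, 1 point a library, KO in reds and WT in blues, genes in order of mean TPM. KO 3 is the highest point for all 9 genes and KO 1 the lowest for 8.

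CD79A and CD79B, the signalling chains of the B cell receptor, were the most abundant of the 9. Cd79a (ENSMUSG00000003379, chromosome 7, 24897381 to 24902197, plus strand) had 5.65, 7.12 and 35.6 CPM in KO 1, KO 2 and KO 3, and the WT libraries, also in the order of their numbers, had 17.4, 28.6 and 21.8 CPM. Cd79b (ENSMUSG00000040592, chromosome 11, 106311341 to 106314762, minus strand) had 3.08, 4.46 and 19.9 CPM in the KO and 8.85, 14.3 and 11.4 CPM in the WT libraries. For both genes KO 1 and KO 2 lay below every WT library and KO 3 above every WT library, an arrangement that held for 1.94% of tested genes and for 5 of these 9. The means were 16.1 ± 16.9 and 22.6 ± 5.64 CPM for Cd79a and 9.15 ± 9.34 and 11.5 ± 2.70 CPM for Cd79b (KO and WT, SD, n = 3). The log2 fold changes of -0.48 ± 0.64 and -0.33 ± 0.63 (SE) did not pass in edgeR (adjusted p = 0.787 and 0.856). Without KO 3 they were -1.82 ± 0.27 and -1.61 ± 0.31, which edgeR did not call (adjusted p = 0.104 and 0.163), while DESeq2 on the same 5 libraries called both lower (adjusted p = 5.97e-07 and 0.000460).

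CD22, an inhibitory receptor that binds sialic acid and dampens B cell receptor signals, followed the CD79 chains. Cd22 (ENSMUSG00000030577, chromosome 7, 30865402 to 30880342, minus strand) had 4.62, 5.51 and 19.7 CPM in the KO and 7.31, 16.0 and 12.6 CPM in the WT libraries. Here too KO 1 and KO 2 were below and KO 3 above the WT range. Its log2 fold change was -0.26 ± 0.55 with all libraries (edgeR adjusted p = 0.870) and -1.24 ± 0.36 without KO 3, where edgeR did not call it (adjusted p = 0.274) and DESeq2 did (adjusted p = 0.0474).

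The B cell receptor kinase BLK, of the SRC family, and the scaffold BANK1, which links LYN kinase to calcium release, were among the low members. Blk (ENSMUSG00000014453, chromosome 14, 63372836 to 63417037, minus strand) had 0.976, 1.36 and 5.53 CPM in the KO and 1.80, 1.63 and 3.20 CPM in the WT libraries. Bank1 (ENSMUSG00000037922, chromosome 3, 136053363 to 136326066, minus strand) had 1.44, 2.17 and 5.15 CPM in the KO and 1.41, 2.60 and 4.54 CPM in the WT libraries. KO 1 and KO 2 were below every WT library for Blk, but lay within the WT range for Bank1. Neither passed in edgeR (0.26 ± 0.65 and 0.043 ± 0.57 on the log2 scale, adjusted p = 0.896 and 0.982), also not without KO 3 (-0.91 ± 0.47 and -0.66 ± 0.54, adjusted p = 0.513 and 0.689).

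Ms4a1 encodes CD20, the surface protein that B cells carry until they become plasma cells, and Pax5 the transcription factor that holds the B cell identity. Ms4a1 (ENSMUSG00000024673, chromosome 19, 11249675 to 11266241, minus strand) had 0.770, 3.04 and 7.03 CPM in the KO and 1.71, 4.02 and 4.60 CPM in the WT libraries. Pax5 (ENSMUSG00000014030, chromosome 4, 44524757 to 44710487, minus strand) had 0.667, 3.10 and 9.76 CPM in the KO and 2.69, 4.73 and 6.12 CPM in the WT libraries. KO 1 was below and KO 3 above the WT range for both genes, and KO 2 fell within it. The log2 fold changes were 0.073 ± 0.70 and 0.0032 ± 0.77 (edgeR adjusted p = 0.975 and 0.999), and -0.86 ± 0.66 and -1.27 ± 0.65 without KO 3 (adjusted p = 0.671 and 0.514).

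Cr2 encodes the complement receptors CR2 and CR1 of the mouse by alternative splicing, and is made by B cells and by follicular dendritic cells. Cr2 (ENSMUSG00000026616, chromosome 1, 195136811 to 195176716, minus strand) had 0.308, 1.86 and 5.90 CPM in the KO and 0.983, 2.75 and 3.65 CPM in the WT libraries. It lies on the chromosome of Adamts4, 23.9 Mb away. KO 2 again fell within the WT range and KO 3 above it, and the log2 fold change of 0.14 ± 0.86 did not pass (edgeR adjusted p = 0.961, and -1.19 ± 0.81 with 0.628 without KO 3).

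Fcer2a encodes CD23, the low-affinity IgE receptor of resting follicular B cells, and had the widest range of the 9. Fcer2a (ENSMUSG00000005540, chromosome 8, 3681737 to 3694175, minus strand) had 0.411, 0.867 and 11.1 CPM in the KO and 1.45, 1.93 and 2.24 CPM in the WT libraries. KO 3 was 4.92 times the highest WT library, where for the other 8 genes that ratio lay between 1.13 (Bank1) and 1.73 (Blk). Its log2 fold change went from 1.14 ± 1.02 with all libraries to -1.56 ± 0.51 without KO 3, with edgeR adjusted p values of 0.682 and 0.319, so neither was called. DESeq2 without KO 3 gave an adjusted p of 0.215.

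**Figure D2:**
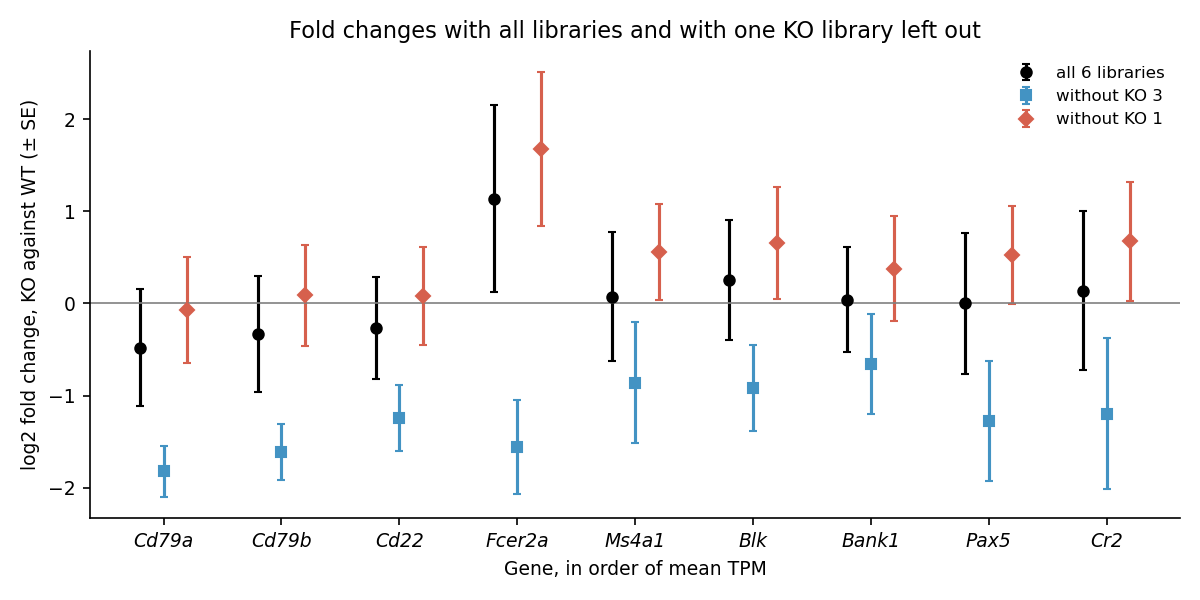
Log2 fold change of KO against WT (± SE, edgeR) for each gene with all 6 libraries (black circles), without KO 3 (blue squares) and without KO 1 (red diamonds). Without KO 3 all 9 values are below 0, and without KO 1 only Cd79a is, at -0.072.

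As a group, the 9 genes moved from a median log2 fold change of 0.043 to -1.24 when KO 3 was left out, where the median of all tested genes was 0.024. All 9 were then below 0, 4 had an unadjusted p below 0.05 in edgeR (7.21% of tested genes were lower at that p), none was called by edgeR (0.0203% of genes were called lower) and DESeq2 called 3 lower, Cd79a, Cd79b and Cd22 (2.42% of genes). The 6 genes that were above 0 with all libraries thus turned below 0 without KO 3. KO 3 was the highest library for all 9 genes, so leaving it out was bound to lower each fold change. The 9 genes also moved together (median pairwise correlation 0.863), so the counts above are not 9 separate results. Leaving out other libraries turned directions too. Without WT 1, Ms4a1, Pax5, Cr2 and Bank1 stood at -0.26, -0.27, -0.26 and -0.30, and without WT 2 Bank1 stood at -0.016 and Cd22 at 0.0058. Cd22 was above 0 without KO 1 (0.082) and without KO 2 (0.020), and Cd79b without KO 1 (0.088). Leaving out KO 1 instead gave a median of 0.52. The highest KO library exceeded the lowest by a median of 6.46 times over the 9 genes, against 1.48 times over all tested genes, and the highest WT library exceeded the lowest by 2.19 times, against 1.29. In bulk tissue, a difference in the number of B cells and a difference in RNA per B cell cannot be told apart.

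Levels of different genes were compared per length. In the authors' TPM the WT means were 28.6 ± 7.61 for Cd79a, 17.3 ± 4.16 for Cd79b and 7.69 ± 1.92 for Cd22 (SD, n = 3), and these 3 were ordered alike in each of the 6 libraries. The other 6 lay between 1.55 ± 0.325 (Fcer2a) and 2.06 ± 0.914 (Ms4a1) in WT and did not differ beyond their spread. In KO 3 Fcer2a, at 9.08 TPM, stood level with Cd22 at 8.94 TPM.

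Within the summed counts of the 9 genes, where scaling between libraries plays no part, Fcer2a took 9.24% in KO 3 (95% Wilson interval 8.10% to 10.5%, 206 of 2230 counts). Its share was 2.29% in KO 1 (1.17% to 4.46%) and 2.94% in KO 2 (1.76% to 4.88%). The WT shares were 3.34%, 2.53% and 3.20%, with upper bounds of at most 4.63%. The share in KO 3 thus lay beyond the counting error of the other 5 libraries, in 1 library and with no replicate of it. Such intervals cover counting error only.

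**Figure D3:**
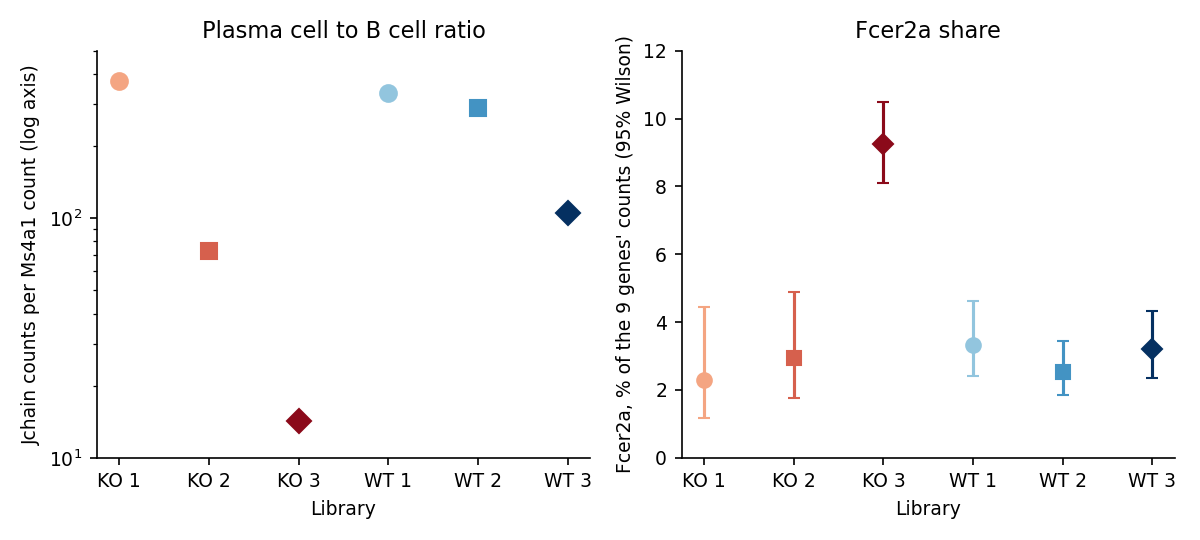
Left, counts of Jchain per count of Ms4a1 in each library (log axis); right, Fcer2a as a percent of the summed counts of the 9 genes with 95% Wilson intervals. KO 3 has the lowest ratio, 14.3, and the highest share, 9.24%.

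KO 1 and KO 2 differed more for some of the 9 genes than for others. KO 2 exceeded KO 1 by 6.03 times for Cr2 (95% exact interval of the count ratio 2.47 to 17.7), 4.64 times for Pax5 (2.48 to 9.31) and 3.94 times for Ms4a1 (2.17 to 7.56). For Cd79a, Cd22, Cd79b, Blk and Bank1 the ratio was between 1.19 and 1.51, with upper bounds of 1.65, 1.62, 2.07, 2.73 and 2.57, and for Fcer2a, with few counts, it was 2.11 (0.826 to 5.81). The intervals of Cr2, Pax5 and Ms4a1 thus lay above those of Cd79a, Cd22 and Cd79b and overlapped those of Blk, Bank1 and Fcer2a. Outside the 9 genes, Ighd, the IgD heavy chain of mature naive B cells, had a ratio of 6.87 (3.48 to 15.1). For Ighm, the IgM heavy chain, the ratio was 0.876, with an interval that barely excluded equal levels (0.767 to 0.999). Jchain, the joining chain of secreted IgA and IgM, was lower in KO 2, with a ratio of 0.764 (0.732 to 0.797). All of these intervals cover counting error only, not the spread between libraries or the error of the scaling factors. Over the 6 libraries the log2 CPM of Ms4a1 and Cr2 had a Pearson correlation of 0.999 and that of Cd79a and Cd79b 0.995, while the 36 pairs ranged from 0.688 (Cd79a and Bank1) upwards with a median of 0.863. These correlations describe 6 libraries that share KO 3 as the extreme point.

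Ratios of counts within a library set the B cell genes against plasma cell and leukocyte genes. There were 375 Jchain counts per Ms4a1 count in KO 1, 72.8 in KO 2 and 14.3 in KO 3, and the WT libraries had 333, 288 and 105. KO 1 was above the WT range and KO 2 and KO 3 below it, and the difference of means, -1.56 on the log2 scale, had p = 0.4 in a two-sided exact permutation test (0.5 adjusted over 3 ratios), where 3 against 3 cannot go below 0.1. The difference was -0.39 without KO 3. Counts of the 9 genes per count of Ptprc, the leukocyte antigen CD45, were 1.28, 1.11 and 4.47 in the KO and 2.38, 2.77 and 2.27 in the WT libraries (difference -0.41 on the log2 scale, exact p = 0.5, adjusted 0.5). With the whole pan-leukocyte list in place of Ptprc the difference was -0.17 (exact p = 0.7). KO 1 and KO 2 were thus below the WT range relative to Ptprc too, and KO 3 above it. Without KO 3 the difference was -1.05 (exact p = 0.2, the lowest that 2 against 3 libraries can give). Ms4a1 counts per Cd79a count were 0.136, 0.426 and 0.197 in the KO and 0.0985, 0.141 and 0.211 in the WT libraries (difference 0.66, exact p = 0.5, adjusted 0.5, and 0.75 without KO 3).

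Other B cell surface genes were often arranged over the libraries in the same way. Of 20 tested, 9 were highest in KO 3 (23% of tested genes). In both KO 1 and KO 2, 10 were lower than in every WT library (14.7% of tested genes). Cxcr5, the receptor that leads B cells into follicles, had 1.18, 2.48 and 11.7 CPM in the KO and 2.27, 6.72 and 7.01 CPM in the WT libraries. It did not pass (-0.053 ± 0.78, edgeR adjusted p = 0.984), also not in DESeq2 without KO 3 (-1.54 ± 0.60, adjusted p = 0.172). Ighd had 0.513, 3.53 and 29.5 CPM in the KO and 5.94, 11.6 and 15.8 CPM in the WT libraries, and Ighm, the IgM heavy chain, 27.9, 24.5 and 84.0 CPM against 51.5, 108 and 101. Their log2 fold changes were 0.010 ± 1.05 and -0.93 ± 0.49 (edgeR adjusted p = 0.998 and 0.455), and DESeq2 without KO 3 gave -2.46 ± 0.67 and -1.72 ± 0.32 (adjusted p = 0.0134 and 2.21e-05). EdgeR without KO 3 called neither Ighd nor Ighm (adjusted p = 0.291 and 0.159). The smallest p of the list belonged to Cd24a, an adhesion protein that epithelial cells make as well, at 0.93 ± 0.18 (edgeR adjusted p = 0.0979, DESeq2 5.11e-05), followed by the complement regulator Cd55 at -0.39 ± 0.18 (edgeR adjusted p = 0.419). In all, edgeR called 0 of the 20 and DESeq2 1 (Cd24a), against 2.83% of genes lower and 0.705% higher. Without KO 3, DESeq2 called 5 lower (Cd37, Fcrl1, Tnfrsf13c and H2-Ob among them, chosen after their values were seen) and Cd24a higher. The shares of all genes were 2.42% lower and 0.728% higher. None of the 20 was called by edgeR without KO 3.

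The genes that carry the signal inside the cell did not rise in KO 3. Of 20 tested genes of B cell receptor signalling, most of them also used by myeloid cells, KO 3 was the highest library for 0 (23% of tested genes). KO 3 was the lowest library for 5, and the share of all tested genes lowest in KO 3 was not counted, here or for the lists below. The signalling genes had a median log2 fold change of -0.31 with all libraries and -0.25 without KO 3. Of these, 6 had an unadjusted p below 0.05 in edgeR (13% of tested genes in either direction) and none was called by edgeR or DESeq2. Btk, the kinase downstream of the receptor, stood at -0.90 ± 0.25 and Inpp5d, the phosphatase SHIP1, at -0.79 ± 0.24 (edgeR adjusted p = 0.196 and 0.231). Fcgr2b, the inhibitory Fc receptor of B cells and macrophages, named after its values were seen, lies 0.274 Mb from Adamts4 and stood at -1.12 ± 0.45 (edgeR adjusted p = 0.350), with 51.8, 41.1 and 13.4 CPM in the KO and 55.5, 73.8 and 101 CPM in the WT libraries. Among 14 B lineage transcription factors, edgeR called 0 and DESeq2 called 1 lower (2.83% of genes). It was Pou2af1, the octamer coactivator that plasma cells also use (-1.38 ± 0.34, edgeR adjusted p = 0.162, DESeq2 0.00344). Next in that list was Ets1, an ETS factor of lymphocytes, at -0.62 ± 0.20 (edgeR adjusted p = 0.253).

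Of 14 tested follicle stroma and lymphoid chemokine genes, 12 were lower in both KO 1 and KO 2 than in every WT library (14.7% of tested genes). KO 3 was the highest library for 4 of the 14 (23% of tested genes) and the lowest for 5. The median log2 fold change of the 14 was -0.54 with all libraries, with 11 below 0, and -0.93 without KO 3, with 13 below 0. With all libraries 8 were lower at an unadjusted p below 0.05 in edgeR, which 13% of tested genes reached in either direction. Cxcl13, the chemokine that draws B cells into follicles, had 4.21, 5.64 and 3.75 CPM in the KO and 43.8, 18.6 and 49.0 CPM in the WT libraries, so KO 3, the library highest in B cell genes, had the lowest Cxcl13. It was the 1 gene called lower in edgeR among these 14 (-3.04 ± 0.38, adjusted p = 0.0483, with 0.151% of tested genes called lower). That call held without WT 2 (edgeR adjusted p = 0.0123) and was lost without any of the other 5 libraries (0.0603 to 0.237, with -2.92 and 0.109 without KO 3). It was also lost with median-ratio factors (0.0543) and in limma-voom (0.0674). In edgeR it held with upper-quartile factors (0.035), without a count filter (0.0212), with 1 CPM needed in 3 libraries (0.0496) and with the replicate block (0.0323). It held too in limma on log2(TPM + 1) (adjusted p = 0.0308) and in DESeq2 without KO 3 (9.89e-10). DESeq2 called 3 of the 14 lower (2.83% of genes), Cxcl13, Bst1 and Madcam1, the venule ligand for gut-homing lymphocytes. Bst1, a surface enzyme of lymphoid stroma and myeloid cells, stood at -1.72 ± 0.28 (edgeR adjusted p = 0.0644, DESeq2 0.000119). Glycam1, a glycoprotein made by the high endothelial venules of lymph nodes and chosen after its values were seen, had 15.1 CPM in KO 3 and 0.257 to 1.22 CPM in the other 5 libraries. Its log2 fold change of 2.35 ± 1.21 did not pass (edgeR adjusted p = 0.451). Of 8 tested germinal centre genes all 8 were below 0 (median -0.57, and -0.46 without KO 3). Among them 3 had an unadjusted p below 0.05 in edgeR (13% of tested genes in either direction) and none was called by edgeR or DESeq2. Fas, the death receptor, stood at -0.66 ± 0.22 and Bcl6, the germinal centre repressor, at -0.72 ± 0.29 (edgeR adjusted p = 0.287 and 0.358). Among 8 tested M cell and follicle epithelium genes 7 were below 0 (median -0.52, and -0.45 without KO 3). EdgeR called 0 and DESeq2 called 1 lower (2.83% of genes), Tnfaip2 (-1.49 ± 0.42, adjusted p = 0.207 in edgeR and 0.00686 in DESeq2). The RANK ligand gene Tnfsf11 stood at -1.82 ± 0.47 (edgeR adjusted p = 0.179).

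T cell genes were arranged over the libraries like the B cell genes, and plasma cell genes were not. Of 18 tested naive and follicular T cell genes, 11 were highest in KO 3 (23% of tested genes) and 12 were lowest in KO 1 (14.9%), with Cd3e, a chain of the T cell receptor complex, at 2.57, 3.90 and 6.22 CPM in the KO and 3.55, 7.94 and 5.72 CPM in the WT libraries (-0.44 ± 0.41, edgeR adjusted p = 0.697). Median log2 fold changes of this list were -0.32 with all libraries and -0.84 without KO 3. EdgeR called 0 of the 18, and DESeq2 called 1 lower (2.83% of genes). It was S1pr1, the receptor for leaving lymphoid tissue (-0.80 ± 0.19, adjusted p = 0.155 in edgeR and 0.0196 in DESeq2). The follicular helper marker Pdcd1 stood at -0.87 ± 0.33 (edgeR adjusted p = 0.333). Of 12 plasma cell genes, KO 3 was the highest library for 0 (23% of tested genes) and the lowest for 7 (share of all tested genes not counted). Jchain had 289, 221 and 100.5 CPM in the KO and 569, 1158 and 483 CPM in the WT libraries (-1.86 ± 0.46, edgeR adjusted p = 0.162, DESeq2 0.000269). The secretory chaperone Mzb1 had 10.1, 4.27 and 5.85 CPM against 22.4, 37.3 and 16.8 (-1.92 ± 0.39, edgeR adjusted p = 0.108, DESeq2 5.45e-05). For both genes the KO values were below every WT value, as for 10.2% of tested genes. In all, edgeR called 0 of the 12 plasma cell genes and DESeq2 3 lower (Jchain, Mzb1 and Prdm1), with and without KO 3. DESeq2 called 2.83% of genes lower with KO 3 and 2.42% without it.

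**Figure D4:**
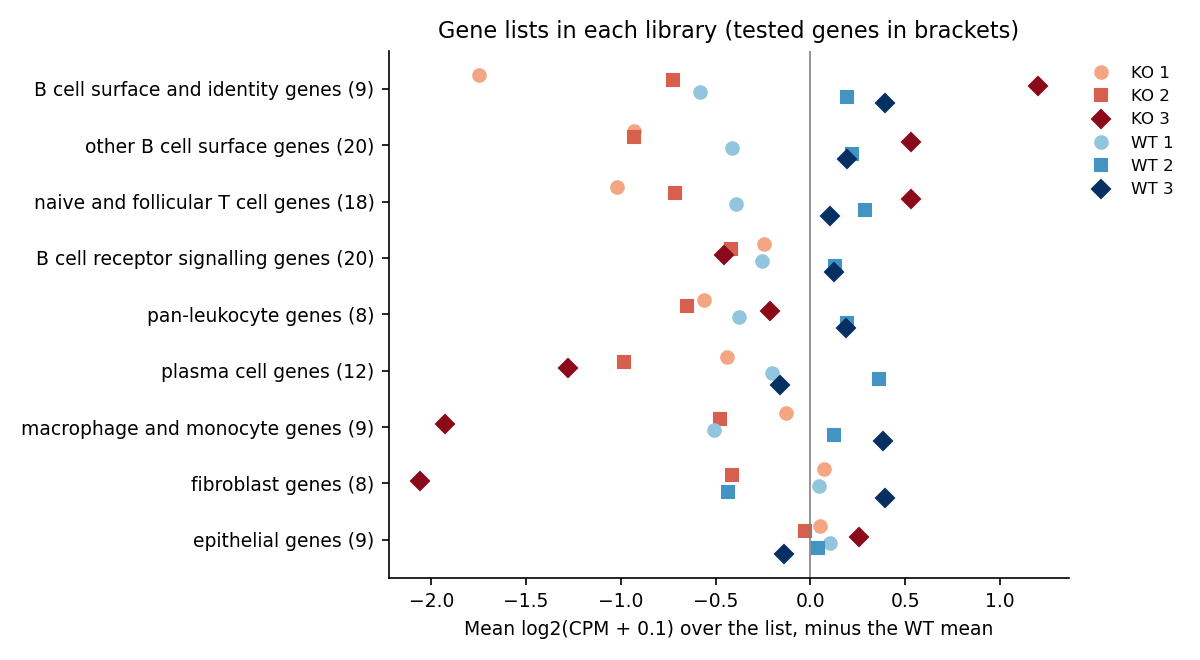
Mean log2(CPM + 0.1) over the tested genes of each list, minus its mean over the 3 WT libraries, 1 point a library. KO 3 is the highest library for the 9 B cell genes (1.20) and T cell genes (0.53) and the lowest for plasma cell (-1.28), macrophage (-1.93) and fibroblast genes (-2.06).

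Markers of macrophages and fibroblasts moved opposite to the B cell genes in KO 3. All 9 macrophage and monocyte genes and all 8 fibroblast genes were lowest in KO 3 (share of all tested genes not counted). The summed level of the fibroblast list was 729 CPM in KO 3, against 2555 and 4429 CPM in KO 2 and KO 1 and 2449 to 4867 CPM in WT. Col1a1, a fibrillar collagen, had 110 CPM in KO 3 and 327 to 787 CPM elsewhere (-0.19 ± 0.61, edgeR adjusted p = 0.918). Epithelial genes differed less, with summed levels of 13350 to 17190 CPM in the KO and 12550 to 15420 CPM in the WT libraries, and Epcam stood at 0.28 ± 0.16 (edgeR adjusted p = 0.517). Smooth muscle genes summed to 3771 to 4564 CPM in the KO and 2151 to 3432 CPM in the WT libraries. A log2 fold change above 0 was found for 7 of 7 (45.8% of tested genes were below 0). EdgeR called 0 of these 7 and DESeq2 called 3 of them higher (0.705% of genes). Ptprc had 14.0, 26.6 and 26.8 CPM in the KO and 18.3, 27.6 and 30.9 CPM in the WT libraries (-0.19 ± 0.30, edgeR adjusted p = 0.827). It changed least of the 8 pan-leukocyte genes, all of which were below 0 (median -0.52). Of the 8, 5 were lower at an unadjusted p below 0.05 in edgeR (13% of tested genes in either direction), and edgeR and DESeq2 called 0. In 6 of them KO 1 and KO 2 were below every WT library (14.7% of tested genes). The 8 summed to 222 to 312 CPM in KO and 277 to 419 CPM in WT. All markers of these lists that passed the filter were detected in every library, and their part in the B cell result was not tested.

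Across the 6 libraries, the genes whose levels were most like the mean of the 9 were Fcmr, Chst3, Cxcr5, Trac, Gimap3, Cd3d, Cd3g, Enpep, Pak1 and Ccr7, in order of Pearson correlation from 0.990 to 0.967. They were ranked among 13469 genes with a mean of at least 1 CPM, of which 0.46% had a correlation above 0.9. Fcmr, the Fc receptor for IgM on B cells, had 1.18, 2.42 and 15.3 CPM in the KO and 2.78, 4.68 and 6.84 CPM in the WT libraries. Trac, Cd3d and Cd3g are parts of the T cell receptor complex, and Ccr7 guides lymphocytes into the T cell zone. Pak1 varied only from 93.9 to 107 CPM. With 6 libraries, 1 of them extreme, such correlations describe an arrangement and nothing more.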

How the data were processed

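Read counts per gene and library were used as the authors deposited them, and the TPM that the authors deposited served to compare genes and for an alternative test. The log2 fold change and false discovery rate (a q-value adjusted from the p-value) are quoted only where the authors' deposited table is named. Per the labels' protocols, Trizol was used on colon tissue and the SMARTER kit for mRNA-Seq libraries. Builds GRCm38, mm10 and mm39 all stand in the submitters' processing notes; aligner, counter and strand setting were not given in the sources used here. Gene positions were looked up by Ensembl identifier in GENCODE M21 (GRCm38).

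Genotypes were compared with the quasi-likelihood test of edgeR 4.0.16 in R 4.3.3 (TMM factors, default filter by group, 14553 genes) with Benjamini-Hochberg adjustment over all genes tested, called below 0.05, and checked on simulated data. SE comes from the F statistic. CPM is TMM scaled. DESeq2 1.42.0 and limma 3.58.1 gave alternatives. Ratios within a library used exact permutation tests (SciPy 1.17.1). Between any 2 libraries the chi-square per degree of freedom was at least 43, so none was a duplicate. Alternatives were other scaling factors, filters and tools, a replicate block and leaving out each library.

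The 9 genes, the related gene lists and the tests were chosen with earlier results of these data known. The genes named are the 9, the 2 members of each B cell, follicle, T cell and plasma cell list with the smallest p, defining markers of the others, and the 10 most alike by Pearson correlation of log2(CPM + 0.1), leaving out predicted genes and immunoglobulin segments. Some genes that stand in the lists and their counts are not reported here by name.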

Additional observations from a re-analysis of the deposited data

How the results depend on the processing

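Of 15 alternative fits, 14 called 0 of the 9 B cell genes, an adjusted p below 0.1 gave 0 too, and DESeq2 without KO 3, added after seeing the data, called 3. In DESeq2 with all libraries Fcer2a had no p and could not be called. Over all genes, edgeR called 23 with TMM factors, 9 with median-ratio factors, 39 with upper-quartile factors, 69 without a count filter, 134 at an adjusted p below 0.1 and 1 to 29 with 1 library left out. DESeq2 called 542, or 480 without KO 3, and limma on log2(TPM + 1) called 68. Same-numbered libraries did not deviate together (correlations -0.481, -0.182 and -0.496, and 0 of 6 libraries closest to their own number), so the numbers were not taken as pairs; with the replicate block 81 genes and 0 of the 9 were called. In the plasma cell to B cell ratio a block of 3 complete pairs gives the same difference, -1.56, by arithmetic. The difference of that ratio ran from -2.74 to -0.39 with 1 library left out, that of Ms4a1 to Cd79a from 0.20 to 1.02 and that of the 9 genes to Ptprc from -1.05 to -0.043.

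Cd79a, Cd79b and Cd22 stayed below 0 under the other tools, scalings, filters and the block, and each of the other 6 genes changed sign under at least 1 of these. In limma-voom Ms4a1, Pax5, Cr2, Fcer2a and Blk stood at -0.29, -0.62, -0.46, -0.17 and -0.083, in the fit with the replicate block Ms4a1, Pax5, Cr2, Fcer2a, Blk and Bank1 at -0.26, -0.55, -0.37, -0.12, -0.077 and -0.013, and in limma on TPM Ms4a1, Pax5, Cr2, Blk and Bank1 at -0.13, -0.17, -0.23, -0.038 and -0.073. Pax5 was also just below 0 in DESeq2 (-0.0011) and when genes needed 1 CPM in 3 libraries (-0.0005). In DESeq2 without KO 3, Ms4a1, Pax5, Cr2, Fcer2a, Blk and Bank1 stood at -0.85, -1.26, -1.18, -1.56, -0.91 and -0.65, and Glycam1 and Col1a1 at -0.92 and 0.27. Ighd stood at -1.41 in limma-voom, -1.28 with the replicate block, -1.04 in limma on TPM and -2.46 in DESeq2 without KO 3. The cause was not tested. With 1 library left out in edgeR, log2 fold changes ran from -0.86 to 0.56 for Ms4a1, -1.82 to -0.072 for Cd79a, -1.61 to 0.088 for Cd79b, -1.27 to 0.52 for Pax5, -1.19 to 0.67 for Cr2, -1.56 to 1.68 for Fcer2a, -1.24 to 0.082 for Cd22, -0.91 to 0.65 for Blk, -0.66 to 0.55 for Bank1, -2.48 to 0.58 for Ighd, -1.55 to 0.42 for Cxcr5, -0.39 to 0.063 for Ptprc, -0.93 to 0.27 for Col1a1 and -0.93 to 2.92 for Glycam1. Several members had fewer than 50 counts in a KO library, so counting error adds to their spread.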

Other observations

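Gp2, a membrane glycoprotein of M cells and also a major product of the pancreas, was the most uneven gene of the lists described above, with 556, 6.44 and 0.644 CPM in KO 1, KO 2 and KO 3 and 1.24, 26.8 and 796 CPM in WT 1, WT 2 and WT 3. Its order over the libraries was unlike that of the B cell genes, since KO 3, the highest library for those, had the lowest Gp2. Lef1 and Tcf7, transcription factors of naive T cells named after their values were seen, were highest in KO 3. Lef1 had 6.81 CPM there and 0.822 to 1.57 CPM in the other libraries, and Tcf7 28.3 CPM against 6.63 to 10.6.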
